A study of Mus musculus with 6 samples.

Results

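The replication-dependent histone genes are the multicopy genes that code for the linker histone H1 and the core histones H2A, H2B, H3 and H4 made for newly copied DNA. They were taken as every gene whose older mouse symbol starts with Hist1h, Hist2h, Hist3h or Hist4h and that has a probe set annotated to that gene alone. 31 such genes were measured, of 19937 genes with a probe set of their own on the arrays. The platform annotation carries current symbols, in which 0 names have the older form, so the genes were found through the older symbols of a mouse gene table (GRCm38.p6), by gene identifier. That table lists 70 genes of this naming, 6 for H1, 20 for H2A, 19 for H2B, 12 for H3 and 13 for H4. The 31 measured alone are 5 H1, 5 H2A, 11 H2B, 3 H3 and 7 H4 genes, each with 1 probe set. A further 38 lie only on probe sets annotated to several genes, and 1, an H2A pseudogene, is on none. The coverage is therefore thin for H3 and H2A, whose near-identical copies are mostly read together.

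Replication-dependent histone genes are transcribed in S phase, the stage of the cell cycle in which DNA is copied, when NPAT in the histone locus body is phosphorylated by cyclin E with CDK2. Most of their transcripts end in a stem-loop bound by SLBP in place of a poly(A) tail, and they are degraded when replication stops. Early thymocytes alternate between rapid division and pauses in which antigen receptor genes are rearranged.

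The 6 arrays measured total RNA of CD4- CD8- double-negative (DN) thymocytes from C57Bl/6 mice 4 to 6 weeks old, depleted of CD4- and CD8-bearing cells on beads and then flow sorted. The 3 RAG-/- arrays, labelled as control, hold cells of Rag2-/- mice, which cannot rearrange antigen receptor genes. The 3 DNTLX3+ arrays, labelled as tumoral, hold wild-type DN cells that carry a pMSCV-GFP-TLX3 retrovirus, which drives the homeobox factor TLX3, and were grown for 4 to 5 weeks on irradiated OP9-DL1 stroma, a bone marrow line that presents a Notch ligand, with IL-7 and Flt3L. Genotype, transduction and, as far as the labels say, culture therefore differ together between the groups and cannot be told apart, and arrays with the empty vector were not analysed here. The labels do not say whether the replicates came from separate animals or cultures, so the p-values speak only of how far these 3 and 3 samples varied, and that variation may be technical. They also do not say whether labelling was primed at poly(A), which transcripts ending in a stem-loop lack.

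Values are the deposited log2 expression levels, and differences are DNTLX3+ minus RAG-/- in log2 units with the standard error (SE) of the limma fit and p-values adjusted by Benjamini-Hochberg over all 28192 probe sets tested. A gene is said to have passed at an adjusted p under 0.05, and to be called where its difference is also at least 1 in size. The DNTLX3+ arrays spanned a narrower range, with interquartile ranges of 2.47 to 2.85 against 3.09 to 3.18, and were more spread among themselves, with a median SD over probe sets of 0.21 against 0.11. Genes of different brightness are therefore also compared with genes like them below. T-lineage markers lay above the array medians in both groups (10 of 10 measured), but 7 of them passed as lower in DNTLX3+ and 1 as higher. Of all genes 19.4% passed as lower and 23.0% as higher, and of genes above the array medians 30.2% and 12.8%. Ptcra and Il2ra, genes of the pre-T-cell receptor and of the IL-2 receptor, were called lower at -1.11 and -1.19. Of the coreceptors that the sort selects against, Cd8b1 was called higher (a difference of 1.52, adjusted p = 0.000157), and Cd4 and Cd8a did not pass. Of the markers of other cells, 14 of 14 myeloid and dendritic, 8 of 11 NK and cytotoxic and 6 of 11 thymic epithelial markers were called lower in DNTLX3+. Of all genes 5.07% were called lower. The summed linear signal of the myeloid list was 7339 to 8909 on the RAG-/- arrays and 711 to 816 on the DNTLX3+ arrays, where 13 of its 14 markers lay under the array medians. In the other lists, 0 of 6 B cell, 1 of 4 erythroid and 2 of 8 stromal fibroblast markers were called lower. Of all these lists none had a marker called higher, against 1.44% of all genes. The B cell markers Ms4a1 and Pax5 and the erythroid factor Klf1 (0.94) passed as higher. The part of these cells in the histone values was not tested, and in bulk RNA a change in the share of cells that make a transcript and a change per cell cannot be told apart.

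The promoters of 8 genes are printed here. They cover the H2B genes with the largest differences, among them the brightest, H2bc14. Beside them stand H2B genes that did not pass, the bright H2bc3 and H2bc8 near the array medians. An H4 gene that passed the test described above is set beside one that did not. Each is the stretch of 120 bases before the RefSeq start in GRCm38.p6, read 5′ to 3′ on the gene's strand. In the H2B genes, capitals mark exact matches on either strand to ATTTGCAT, the octamer bound by OCT1, to CCAAT, the box bound by NF-Y, and to TATAAA.
H2bc1, chr13:23934157-23934276, minus strand: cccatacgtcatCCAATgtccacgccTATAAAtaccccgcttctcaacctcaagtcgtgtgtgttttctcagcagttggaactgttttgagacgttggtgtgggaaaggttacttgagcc
H2bc9, chr13:23543445-23543564, minus strand: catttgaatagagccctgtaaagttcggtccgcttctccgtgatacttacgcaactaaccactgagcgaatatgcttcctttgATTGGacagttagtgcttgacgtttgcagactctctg
H2bu2, chr11:58948791-58948910, plus strand: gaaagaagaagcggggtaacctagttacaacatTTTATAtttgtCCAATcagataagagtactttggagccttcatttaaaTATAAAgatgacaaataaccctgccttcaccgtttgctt
H2bc14, chr13:21721924-21722043, plus strand: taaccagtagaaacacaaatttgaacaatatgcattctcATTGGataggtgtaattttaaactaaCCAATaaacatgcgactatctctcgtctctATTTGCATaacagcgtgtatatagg
H2bc3, chr13:23746614-23746733, plus strand: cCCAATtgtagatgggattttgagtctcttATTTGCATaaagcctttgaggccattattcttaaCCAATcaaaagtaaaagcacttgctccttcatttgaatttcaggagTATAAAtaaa
H2bc8, chr13:23571280-23571399, plus strand: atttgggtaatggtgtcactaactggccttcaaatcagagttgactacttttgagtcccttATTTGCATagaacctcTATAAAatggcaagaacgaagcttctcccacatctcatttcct
In the H4 genes, capitals mark GGTCCG, part of the site bound by HINFP, on either strand.
H4c3, chr13:23698459-23698578, minus strand: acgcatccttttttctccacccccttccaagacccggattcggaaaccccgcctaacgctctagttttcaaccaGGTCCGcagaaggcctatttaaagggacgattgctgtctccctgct
H4c4, chr13:23581448-23581567, plus strand: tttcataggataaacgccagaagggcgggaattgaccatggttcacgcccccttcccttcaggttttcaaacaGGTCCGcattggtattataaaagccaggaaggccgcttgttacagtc

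Over the 300 bases from 250 before to 50 after the start, the octamer was found in 1.74% of 32851 RefSeq promoters and in 5 of the 8 H2B members and 4 of the 5 H2A members that have an entry. It was found in 0 of 5 H1, 0 of 2 H3 and 0 of 6 H4 members. Among all genes of this naming with an entry, the octamer stood in 7 of 16 H2B and 7 of 18 H2A genes. CCAAT stood in 37.4% of all promoters and in all H1, H2A, H2B and H3 members with an entry, but in 2 of 6 of H4. TATAAA was in 13.6% of all promoters and in 5 of 8 H2B, 4 of 5 H2A, 3 of 5 H1, 1 of 2 H3 and 3 of 6 H4 members. GGTCCG was in 8.25% of all promoters and in 6 of 6 H4 members, and AAACACA, the H1 box, in 7.18% of all promoters and 4 of 5 H1 members. The octamer was present in H2B genes with and without a change. H2bc14 and H2bc3 both carry the octamer, at 25 and 90 bases before the start, and differed by 0.98 and -0.25, while H2bc9 and H2bu2, both called higher, have no octamer in this window. H2bc1 has one farther out, at 164 bases. Other H2B genes paired the other way: H2bc18, with the octamer at 48 bases, differed by 0.76, and H2bc22, without it, by 0.22. Whether the octamer goes with the size of the difference was not tested.

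Most members were higher in DNTLX3+, by a modest amount. The differences were positive for 28 of 31 genes, ran from -0.91 to 1.42 and had a median of 0.43, against 0.11 over all genes. In the limma fit 16 members passed as higher, 51.6% of them against a background of 23.0% of all genes, and 1 passed as lower, against 19.4%. With the minimum difference, 3 were called higher, H2bc1, H2bc9 and H2bu2, which is 9.68% against a background of 1.44%. None was called lower, against 5.07% of all genes, and 1 had an unadjusted p under 0.05 in that direction. The count of 16 was 10 without RAG-/- replicate 1 and 9 without RAG-/- replicate 3. The 3 calls were 1 without DNTLX3+ replicate 1, where H2bc1 was left, 2 without RAG-/- replicate 3, 5 without DNTLX3+ replicate 2 and 8 without DNTLX3+ replicate 3. The arrays of the groups did not overlap for 22 members, 21 with DNTLX3+ above (67.7% against 32.3% of all genes) and 1 below (against 26.0%).

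The same held among brighter genes, which as a whole were lower in DNTLX3+ while dim genes as a whole were higher. Of the 21 members above the array medians in both groups, 12 passed as higher (57.1% against 12.8% of 9548 such genes) and 0 as lower (against 30.2%), 2 were called higher (against 1.08%) and 0 lower (against 6.47%), with 0 at an unadjusted p under 0.05 in the lower direction. Their median difference was 0.43, where that of all such genes was -0.15. The 7 members with a mean level of at least 10 were all positive with a median of 0.34, and 3 passed as higher (42.9% against 14.3%) and 0 as lower (against 26.5%), where 0 had an unadjusted p under 0.05. All genes that bright had a median of -0.11. On single arrays the median member stood at 7.54, 7.58 and 7.65 in RAG-/- and at 8.38, 8.14 and 8.05 in DNTLX3+. Within DNTLX3+, replicate 1 was the highest for 17 of the 31 genes and replicate 3 the lowest for 22.

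**Figure D1:**
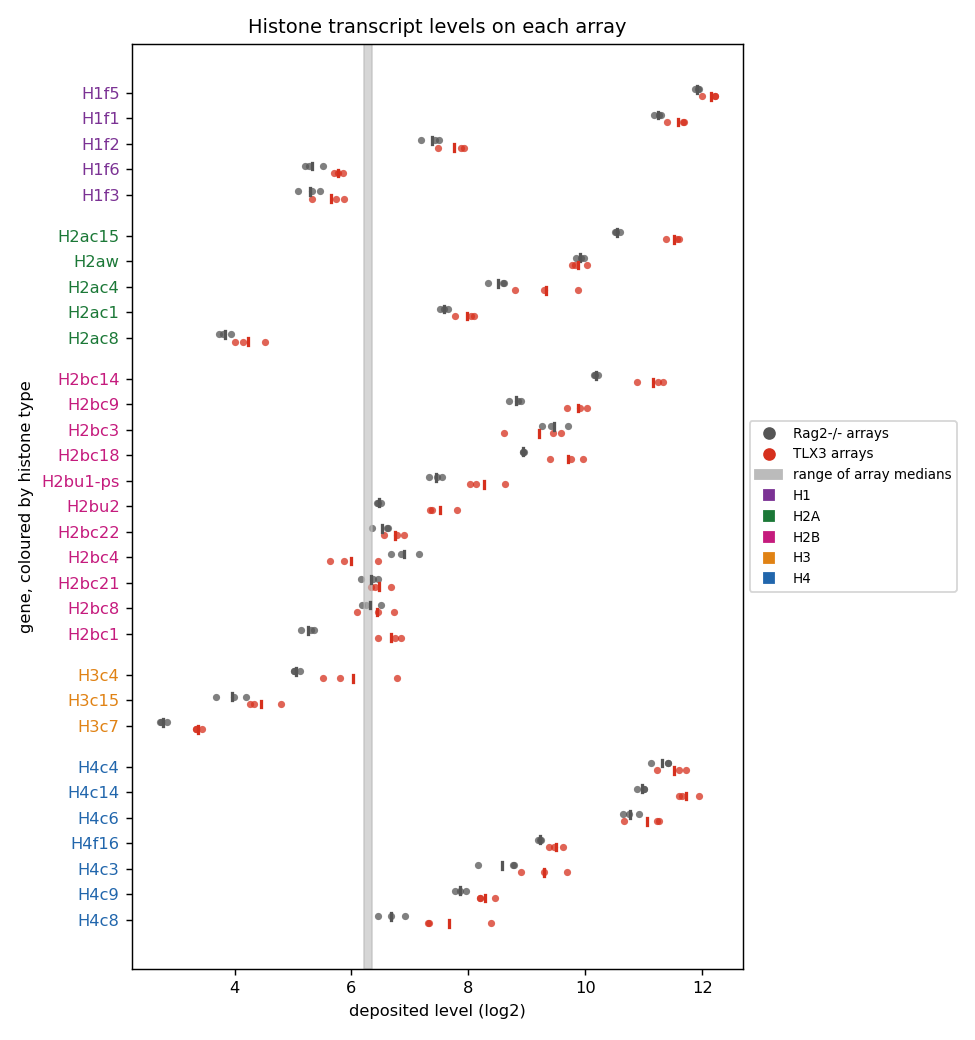
Deposited log2 level of each of the 31 histone genes on each array, grouped by histone type, with RAG-/- arrays (Rag2-/-) in grey, DNTLX3+ arrays (TLX3) in red, a tick at each group mean and a band over the array medians. The DNTLX3+ points lie above all RAG-/- points for 21 genes and below them for 1, H2bc4.

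**Figure D2:**
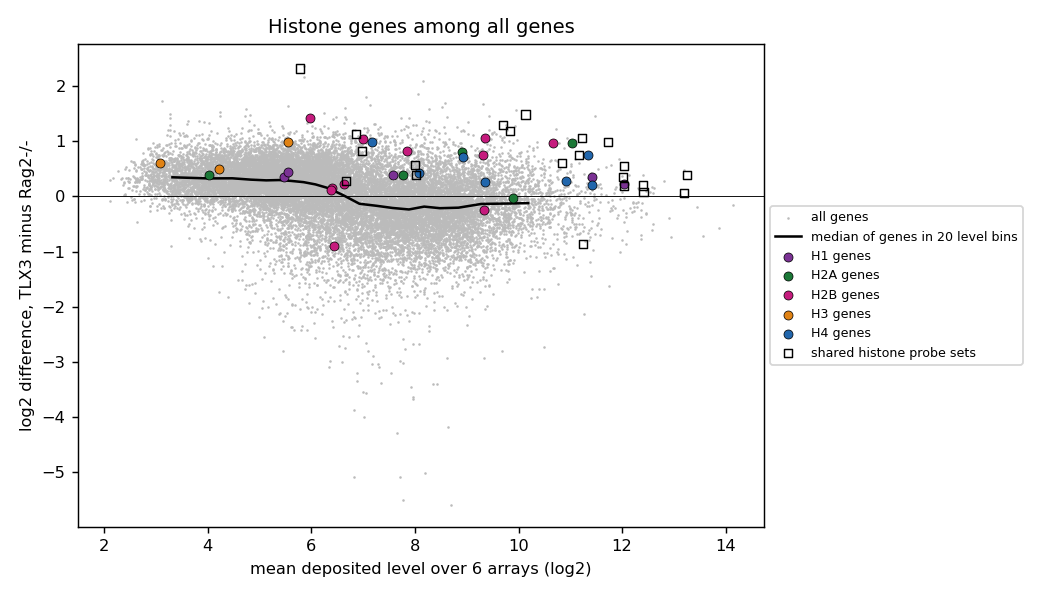
Log2 difference of DNTLX3+ minus RAG-/- against mean deposited log2 level for all 19937 genes (grey), with the histone genes coloured by type, shared histone probe sets as squares and the median of genes in 20 bins of level as a line. The line falls from above 0 among dim genes to below 0 among bright ones, and most histone points lie above it.

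H2B, which pairs with H2A in the nucleosome, held all 3 called genes and, with the most members, the widest range. H4c8 (0.99), H3c4 (0.98) and H2ac15 (0.98) passed just under the minimum for a call. They were called in 5 of 15, 2 of 14 and 4 of 15 analysis settings tried. The 11 H2B members had a median difference of 0.76. Of them 6 passed as higher (54.5% against 23.0% of all genes) and 1 as lower (against 19.4%). Among members of the other types 10 of 20 passed as higher and 0 as lower. The share passing as higher was 60% for H2A, 66.7% for H3, 57.1% for H4 and 20% for H1. H2bc9 (Hist1h2bh) had levels of 8.86, 8.91 and 8.70 in RAG-/- and 10.03, 9.91 and 9.69 in DNTLX3+. Every DNTLX3+ array was above every RAG-/- array, a 2.08-fold difference of 1.06 ± 0.14 (SE, n = 3 and 3, adjusted p = 0.000702 in limma). H2bu2 (Hist3h2ba), in the small chromosome 11 cluster, had 6.50, 6.44 and 6.45 against 7.81, 7.39 and 7.35. The gap between the groups was 2.07-fold, 1.05 ± 0.15 (adjusted p = 0.00103), and wider than the spread within either. Both calls sit close to the minimum difference and fall under it without DNTLX3+ replicate 1, at 0.98 for H2bc9 and 0.90 for H2bu2. That of H2bc9 is also lost without RAG-/- replicate 3, at 0.99. With equal array medians H2bc9 was at 0.995 and H2bu2 at 0.99, and with array weights at 0.96 and 0.95, so neither was called there.

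H2bc1 (Hist1h2ba) codes for TH2B, the H2B of male germ cells. Its levels were 5.35, 5.30 and 5.13 in RAG-/-, under the array medians of 6.22 to 6.25, and 6.85, 6.75 and 6.45 in DNTLX3+. This was the largest difference of the 31 genes, 1.42 ± 0.14 (adjusted p = 0.000256), and since it rose from under the array medians no fold is given. H2ac1 (Hist1h2aa), the germ-cell H2A whose start lies 281 bases from that of H2bc1 on the opposite strand, had 7.52, 7.58 and 7.65 against 7.76, 8.09 and 8.05. Its difference was 0.38 ± 0.13 (adjusted p = 0.0455). H1f6 (Hist1h1t), the germ-cell H1, had 5.20, 5.51 and 5.27 against 5.85, 5.70 and 5.77, all dim, with a difference of 0.45 ± 0.13 (adjusted p = 0.0234). Of these 3 germ-cell genes H2bc1 was called, while H2ac1 passed in 7 of the 15 analysis settings tried and H1f6 in 10 of 14.

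H2bc14 (Hist1h2bm) was the brightest H2B member, at 10.21, 10.15 and 10.17 against 11.33, 11.24 and 10.88. It differed 1.97-fold, by 0.98 ± 0.14 (adjusted p = 0.00122), without reaching the minimum for a call. H2bc18 (Hist2h2bb, chromosome 3) and the pseudogene H2bu1-ps (Hist3h2bb, chromosome 11), named after their values were seen, differed by 0.76 ± 0.16 (adjusted p = 0.00544) and 0.82 ± 0.17 (adjusted p = 0.00546). The H2B genes were not uniform, however. H2bc3 (Hist1h2bb), also well above the array medians, had 9.70, 9.42 and 9.27 against 9.59, 9.45 and 8.61, overlapping groups with a difference of -0.25 ± 0.25 (adjusted p = 0.434). H2bc8 (Hist1h2bg), near the array medians, also overlapped, at 6.25, 6.51 and 6.18 against 6.46, 6.73 and 6.10 (0.12 ± 0.18, adjusted p = 0.614).

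H2bc4 (Hist1h2bc) went the other way. It is among the histone genes known to give polyadenylated transcripts in cells that do not divide. Its levels were 6.67, 6.85 and 7.16 in RAG-/- and 5.63, 6.45 and 5.87 in DNTLX3+, so that all DNTLX3+ arrays were lower, by 0.91 on the log2 scale (SE 0.22, adjusted p = 0.0102). Its DNTLX3+ mean of 5.99 lies under the medians of those arrays, 6.23 to 6.35, so no fold is given. It was the 1 member that passed as lower, and without RAG-/- replicate 1 or DNTLX3+ replicate 2 it was called lower, at -1.02 and -1.14. H2bc21 (Hist2h2be) and H1f2 (Hist1h1c), which are known for the same kind of transcript, had differences of 0.15 ± 0.15 (adjusted p = 0.43) and 0.39 ± 0.16 (adjusted p = 0.0714) and did not pass.

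Of the 5 H2A members, 3 passed as higher (60% against 23.0% of all genes) and 0 as lower (against 19.4%), and the median difference was 0.40. H2ac15 (Hist1h2ak) had 10.51, 10.60 and 10.52 against 11.57, 11.61 and 11.38, tight in both groups and far apart. The difference was 0.98 ± 0.12, or 1.97-fold (adjusted p = 0.000635). H2ac4 (Hist1h2ab) had 8.58, 8.62 and 8.33 against 9.87, 9.30 and 8.80, a 1.76-fold difference of 0.81 ± 0.24 (adjusted p = 0.0243) with more than 1 log2 unit between the DNTLX3+ arrays. Without DNTLX3+ replicate 1 it was 0.54 (adjusted p = 0.038). H2ac8 (Hist1h2ae) was dim on every array and did not pass, at 0.40 ± 0.16 (adjusted p = 0.0672). H2aw (Hist3h2a), which lies in the chromosome 11 cluster with H2bu2 and H2bu1-ps, had overlapping groups, 9.92, 9.98 and 9.84 against 9.83, 10.03 and 9.78 (-0.04 ± 0.13, adjusted p = 0.832).

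The H4 genes were mostly higher by less than a call. Of 7 members, all above the array medians in both groups, 4 passed as higher, 57.1% against 23.0% of all genes and 12.8% of genes above the medians. As lower 0 passed (against 19.4% and 30.2%), with 0 at an unadjusted p under 0.05 in that direction. The median difference was 0.43. H4c14 (Hist2h4, chromosome 3) had 11.01, 11.01 and 10.88 against 11.94, 11.60 and 11.66, a 1.70-fold difference of 0.76 ± 0.14 (adjusted p = 0.0028). H4c8 (Hist1h4h) was dimmer and more scattered, at 6.91, 6.68 and 6.46 against 8.38, 7.33 and 7.31, or 0.99 ± 0.27 (adjusted p = 0.0181). Without DNTLX3+ replicate 1 its difference was 0.64 (adjusted p = 0.0111).

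H4c3 (Hist1h4c) had 8.76, 8.78 and 8.17 against 9.69, 9.29 and 8.90, with no overlap and a difference of 0.72 ± 0.23 (adjusted p = 0.0311). H4c9 (Hist1h4i), the remaining H4 gene that passed, differed by 0.43 ± 0.13 (adjusted p = 0.0276). H4c3 passed in 9 of 15 settings and H4c9 in 10 of 15. Neither was called. H4c4 (Hist1h4d), the brightest of the type, had 11.41, 11.41 and 11.13 against 11.60, 11.72 and 11.23, which overlap, and differed by 0.20 ± 0.16 (adjusted p = 0.334). H4c6 (Hist1h4f) and H4f16 (Hist4h4, chromosome 6) also did not pass, at 0.28 ± 0.18 (adjusted p = 0.233) and 0.27 ± 0.12 (adjusted p = 0.102). H4c3 and H4c4 both carry the letters GGTCCG, at 46 and 47 bases before the start. Whether their differences differ from each other was not tested.

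The 5 linker histone genes differed by 0.23 to 0.45, and whether the size goes with brightness was not tested. H1f5 (Hist1h1b), a main H1 of dividing cells, had 11.94, 11.87 and 11.95 against 12.22, 12.22 and 12.00, so all DNTLX3+ arrays were higher, but by 0.23 ± 0.12 (adjusted p = 0.165). H1f1 (Hist1h1a) had 11.29, 11.26 and 11.18 against 11.67, 11.69 and 11.40, with 0.34 ± 0.13 (adjusted p = 0.0586). Neither passed. H1f3 (Hist1h1d) was dim and overlapped, at 0.35 ± 0.17 (adjusted p = 0.122). H1f6 remains the 1 H1 gene of 5 that passed, 20% against the 23.0% of all genes that passed as higher. None of the H1 genes was called higher (against 1.44% of all genes) or lower (against 5.07%). An unadjusted p under 0.05 was found for 3, all higher, where 5898 of all 19937 genes had one in that direction.

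The 3 H3 members are all under the array medians in RAG-/-, and say little of the many H3 genes. H3c7 (Hist1h3f) was the dimmest, at 2.75, 2.73 and 2.85 against 3.34, 3.34 and 3.45 (0.60 ± 0.12, adjusted p = 0.00425). H3c4 (Hist1h3d) had 5.02, 5.01 and 5.12 against 6.77, 5.81 and 5.52 (0.98 ± 0.28, adjusted p = 0.0193), and H3c15 (Hist2h3c2) differed by 0.50 ± 0.19 (adjusted p = 0.053). Without DNTLX3+ replicate 1 H3c4 was at 0.61. At these levels genes in general lay above 0, as the plot of difference against level shows. When the values were quantile normalized once more the H3 median dropped from 0.60 to 0.25.

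**Figure D3:**
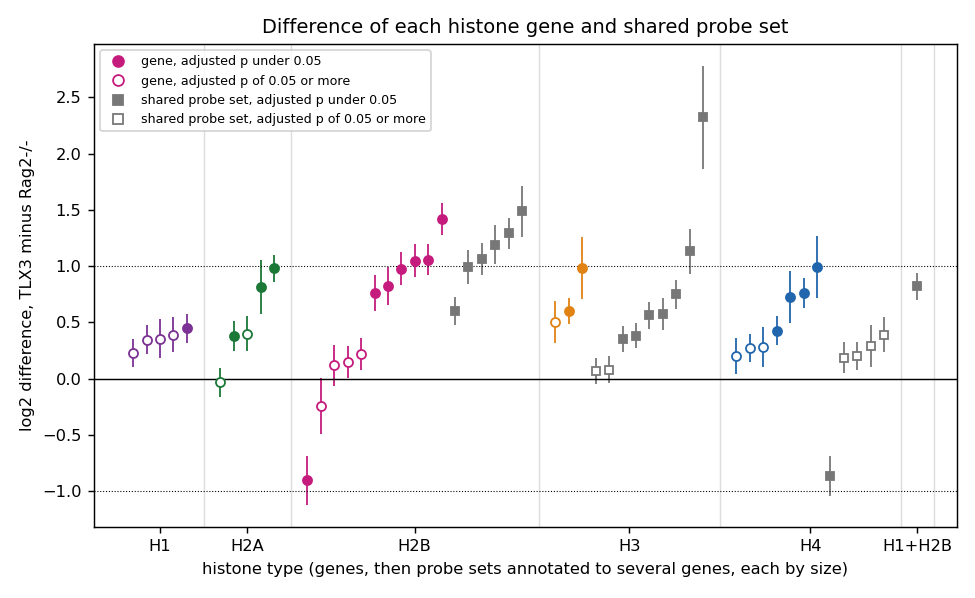
Log2 difference of DNTLX3+ minus RAG-/- for each histone gene, with bars for the standard error of the limma fit, ordered by size within histone type, and shared histone probe sets as squares beside them. Filled symbols have an adjusted p under 0.05 and dotted lines mark the minimum difference for a call. The called H2B genes lie at 1.05 to 1.42, and H2bc4 at -0.91 is the single gene that passed as lower.

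Genes read together were seen through 21 probe sets annotated to several symbols, all of them histone genes of this naming. These count transcripts of many copies at once and name no gene. None of the 21 is annotated to an H2A gene. H2A genes read together lie on 2 further probe sets, each with a gene outside this naming, not counted below. One, with 18 of its 19 genes of this naming (H2A and H3), had 6.48, 6.78 and 6.48 in RAG-/- against 7.36, 7.48 and 7.31 in DNTLX3+ (0.80 ± 0.13, adjusted p = 0.00215). The other, dim, differed by 0.26 (adjusted p = 0.188). Of the 21, 14 passed as higher (66.7% against 23.0% of all genes) and 1 as lower (against 19.4%), 6 were called higher (28.6% against 1.44%) and 0 lower (against 5.07%, with 1 at an unadjusted p under 0.05 in that direction), and the median difference was 0.58. The 6 H2B probe sets, each annotated to 14 or 15 genes, all passed as higher (against 23.0% of all genes). Their differences were 0.60 to 1.49 with a median of 1.13, and 4 were called (66.7% against 1.44%). The largest of them had 9.77, 9.17 and 9.23 in RAG-/- against 11.01, 11.19 and 10.44 in DNTLX3+, a 2.80-fold difference of 1.49 ± 0.23 (adjusted p = 0.00138). The brightest had 11.37, 11.31 and 11.03 against 12.34, 12.31 and 12.02, or 0.99 ± 0.15 (adjusted p = 0.00133). All 6 separate the groups without overlap, with DNTLX3+ above (against 32.3% of all genes). They share genes, so they are not independent of one another or of the H2B members with near-identical sequence.

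The 9 probe sets annotated to the same 12 H3 genes gave unequal answers. Of them, 7 passed as higher (77.8% against 23.0% of all genes) and 2 were called (22.2% against 1.44%), and the median was 0.56. The brightest, at 13.19, 13.17 and 13.13 against 13.20, 13.30 and 13.19, differed by 0.07 (adjusted p = 0.654), and the one at 12.40, 12.31 and 12.42 against 12.49, 12.50 and 12.36 by 0.08 (adjusted p = 0.607). Another, at 13.04, 13.09 and 13.07 against 13.43, 13.46 and 13.45, had groups without overlap and a difference of 0.38 ± 0.11 (adjusted p = 0.0238). A probe set of middle brightness had 10.83, 10.81 and 10.72 against 11.57, 11.66 and 11.37, or 0.75 ± 0.13 (adjusted p = 0.00231). Both called ones were dim, with 6.44, 6.24 and 6.23 against 6.98, 7.81 and 7.52 (1.13 ± 0.20, adjusted p = 0.00279), and with 5.28, 4.51 and 4.05 against 7.40, 7.60 and 5.80 (2.32 ± 0.46, adjusted p = 0.00436). The same annotated genes thus gave differences from 0.07 to 2.32.

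The shared H4 probe sets lay closer to 0. None of 5 passed as higher (against 23.0% of all genes), with 1 at an unadjusted p under 0.05 in that direction, and the median was 0.20. The brightest, annotated to 11 genes, had 12.39, 12.27 and 12.25 against 12.50, 12.61 and 12.41. Another, annotated to the same number of genes, passed as lower, at 11.73, 11.67 and 11.63 against 10.61, 11.22 and 10.60, a 1.82-fold difference (-0.87 ± 0.18, adjusted p = 0.00512). It is the only shared probe set that passed as lower, and all its DNTLX3+ arrays lie below all RAG-/- arrays. A probe set annotated to an H1 and an H2B gene had 6.55, 6.52 and 6.61 against 7.47, 7.38 and 7.28 (0.82 ± 0.12, adjusted p = 0.00114).

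By position, the 23 members on chromosome 13, which holds the main cluster, had a median difference of 0.40, the 4 on chromosome 3 of 0.63, and the 3 on chromosome 11 of 0.82. Between the chromosome 13 histone genes lie 41 other measured genes. These also lay mostly above 0, 33 positive and 8 negative with a median of 0.29, and 15 passed as higher (36.6% against 23.0% of all genes) and 3 as lower (against 19.4% of all genes). 37 of them were under the array medians in both groups. Of genes above the medians in both groups, 12.8% passed as higher and 30.2% as lower. The rest of all genes therefore passed as higher in more than 23.0% and as lower in under 19.4%. The 28 vomeronasal receptor genes, which code for pheromone receptors of the nose, had a median of 0.31. Of them 10 passed as higher (35.7% against 23.0% of all genes) and 0 as lower (against 19.4%, with 0 at an unadjusted p under 0.05 in that direction). All 28 were under the array medians in both groups, and dim genes as a whole were higher in DNTLX3+. The 13 others had a median of 0.17, with 5 passing as higher (38.5% against 23.0% of all genes) and 3 as lower (against 19.4%). Of the 41, 1 was called in each direction, where 1.44% of all genes were called higher and 5.07% lower. These were the dim receptor gene Vmn1r203, higher at 1.04 (adjusted p = 0.032), and Prss16, a thymic epithelial protease, lower at -5.60. Whether the histone genes stand apart from their neighbours was not tested.

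The factors that make histone transcripts did not move as one. Of 20 measured genes for histone transcription and 3′ end processing (21 listed), 4 passed as higher and 5 as lower, shares near the 23.0% and 19.4% of all genes. In both groups 19 of the 20 lay above the array medians. Of all genes that bright, 12.8% passed as higher and 30.2% as lower, with a median of -0.15. In this list 1 was called higher (against 1.44% of all genes) and 0 lower (against 5.07%, with 5 at an unadjusted p under 0.05 in that direction). The median difference was 0.23. Ccne1, the cyclin E that drives entry into S phase, rose from 7.40, 7.31 and 7.26 to 8.32, 8.50 and 8.37 (1.07 ± 0.12, adjusted p = 0.000404). Ccne2 and Cstf2, a cleavage factor subunit, were higher by 0.56 (adjusted p = 0.0149) and 0.49 (adjusted p = 0.00998). Hinfp, the factor that binds H4 promoters, had 8.17, 8.13 and 8.01 against 6.90, 7.32 and 7.14 (-0.98 ± 0.14, adjusted p = 0.00108). Npat and Casp8ap2, which build the histone locus body, were lower, at -0.53 ± 0.13 (adjusted p = 0.0101) and -0.65 ± 0.13 (adjusted p = 0.00412), and so was the cap-binding gene Ncbp2, at -0.83 (adjusted p = 0.00114). Slbp, whose product binds the stem-loop, had 9.18, 9.28 and 8.77 against 9.43, 9.36 and 9.24 and did not pass (0.27 ± 0.16, adjusted p = 0.19). The 4 higher and 5 lower were 2 and 3 without RAG-/- replicate 1 and 2 and 4 without RAG-/- replicate 3, and 7 passed as higher without DNTLX3+ replicate 1.

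Genes for the turnover of histone transcripts lay lower. Of 14 measured, all above the array medians in both groups, 7 passed as lower and 2 as higher, 2 were called lower, and the median was -0.34. Genes above the array medians lay lower in general, with 30.2% passing as lower, 12.8% as higher, 6.47% called lower and a median of -0.15. Tut4, a uridyltransferase that tags transcripts for decay, fell from 9.66, 9.63 and 9.53 to 8.21, 8.44 and 8.68 (-1.17 ± 0.15, adjusted p = 0.000614). Xrn1, the 5′ to 3′ exonuclease, fell from 9.47, 9.32 and 9.31 to 8.01, 8.39 and 8.30 (-1.13 ± 0.14, adjusted p = 0.00058). Its partners in the list, Tut7 at -0.76 (adjusted p = 0.0128) and Eri1, the exonuclease of the stem-loop, at -0.59 ± 0.18 (adjusted p = 0.0299), passed as lower without a call. Lsm2 and Exosc10 passed as higher, at 0.65 and 0.50. The 7 that passed as lower were 3 without RAG-/- replicate 1 and 4 without RAG-/- replicate 2. Repeating the quantile normalization left neither call, and cyclic loess left 1.

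Histone chaperones, which carry histones to DNA, were split. Of 26 measured (28 listed), 6 passed as higher and 6 as lower, close to the 23.0% and 19.4% of all genes, and the median was -0.03. In both groups 25 of the 26 lay above the array medians. Of all genes that bright, 12.8% passed as higher and 30.2% as lower, with a median of -0.15. Of the 26, 2 were called lower, a share near the 6.47% of genes above the array medians and the 5.07% of all genes. None was called higher, against 1.44% of all genes. Both called genes serve the replication-independent variant H3.3. Atrx fell from 9.79, 9.57 and 9.59 to 7.95, 8.37 and 8.57 (-1.36 ± 0.17, adjusted p = 0.000651), and Ubn2, of the HIRA complex, by 1.11 (SE 0.20, adjusted p = 0.00268). Cdan1 passed as lower, at -0.88. Among those higher were Anp32e, the chaperone that removes H2A.Z, at 0.90 ± 0.15 (adjusted p = 0.00191), Chaf1b, a subunit of the replication-coupled assembly factor CAF-1, at 0.58, and Rbbp7, a histone-binding partner of acetylases and deacetylases, at 0.53. The 6 higher and 6 lower were 4 and 3 without RAG-/- replicate 1, 3 and 3 without replicate 2 and 3 and 4 without replicate 3.

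Variant histones, made outside S phase as well, had 3 of 12 measured genes (15 listed) passing as higher, close to the 23.0% of all genes, and 0 as lower (against 19.4%), with 2 at an unadjusted p under 0.05 in that direction, and a median of 0.24. H1f10, the replication-independent linker histone H1x, was called, with 7.10, 6.89 and 7.10 against 8.72, 8.20 and 8.40, a 2.67-fold difference of 1.42 ± 0.16 (adjusted p = 0.000378). It exceeded every H1 member in size. H2ax, a variant that marks DNA breaks, and H2az1 were higher by 0.54 ± 0.16 (adjusted p = 0.0247) and 0.59 ± 0.17 (adjusted p = 0.0193). The 3 that passed were 1 without RAG-/- replicate 1 or replicate 3.

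Genes of DNA replication and S phase were the list nearest to the histone genes in direction. Of 33 measured (34 listed), all above the array medians in both groups, 13 passed as higher (39.4% against 23.0% of all genes and 12.8% of genes above the medians) and 1, Prim2, as lower (-0.32). Their median was 0.32, and 2 were called higher, Ccne1 and Ccna2 (6.06% against 1.44% of all genes). Ccna2, the cyclin of S phase and G2, rose from 9.13, 9.12 and 9.05 to 10.41, 10.46 and 10.32 (1.30 ± 0.12, adjusted p = 0.000147). Rrm2, the ribonucleotide reductase subunit, and Gins2, of the replicative helicase, were higher by 0.86 (adjusted p = 0.00223) and 0.79 (adjusted p = 0.00135). The count of 13 was 23 when the quantile normalization was repeated and 7 with equal array medians. Without 1 RAG-/- array it fell to 5, 8 and 4 for replicates 1, 2 and 3, and without DNTLX3+ replicate 2 to 7.

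**Figure D4:**
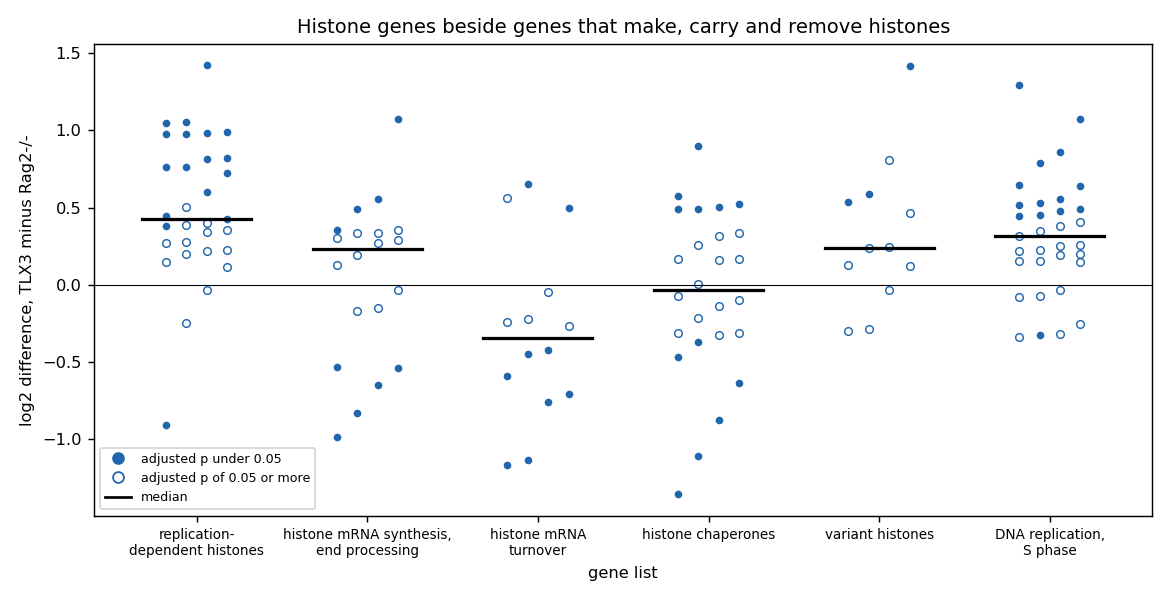
Log2 differences of DNTLX3+ minus RAG-/- for the histone genes and for the genes of each of the 5 related lists, 1 point a gene, with a line at the median of each list and filled points for genes with an adjusted p under 0.05. The histone genes have the highest median, 0.43, and the turnover genes the lowest, -0.34.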

How the data were processed

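Total RNA of 6 samples, 3 RAG-/- and 3 DNTLX3+, was measured on 1-colour Affymetrix arrays with a biotin label, per the labels. The authors deposited 1 log2 value for each probe set and array. The submitters' processing notes name RMA, which corrects background, equalises array distributions and summarises probes, in affy with R 2.9.0. Whether all arrays went through RMA together is not stated there. Groups and replicate numbers come from the sample titles.

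Of 34760 probe sets, 6568 in the block before the genome-ordered ones, with no gene listed, were left out, and 28192 entered a limma 3.58.1 fit (R 4.3.3, lmFit, then eBayes, two-sided, no covariate) with Benjamini-Hochberg adjustment over all of them. Genes come from the 21640 probe sets with 1 symbol in the platform annotation, each gene by its brightest, and the 1321 with several symbols name no gene. Each histone gene had 1 such probe set. Folds are given where both group means lie above the array medians. Array number, 3 a group, limits the precision. The script was tested on simulated data.

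Named are the called histone genes, per type the 3 highest and 3 lowest differences and the brightest and dimmest member, and in each list the called genes and the 3 largest differences in each direction that passed. Any other name was picked after its value was known. The members and lists were chosen with earlier results of these data known. Promoters are RefSeq's on GRCm38.p6, held for 26 of the 31 members, and were searched for exact letters on both strands, with 62 of the 70 genes of this naming matched. Plots were drawn with matplotlib 3.10.9. Alternatives were a repeated quantile normalization, equal array medians, cyclic loess, a filter on dim probe sets, control probe sets included, a robust fit with an intensity trend, a replicate block, weights per array, gene means over probe sets, shared probe sets added, limma's treat and leaving out each array.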

Additional observations from a re-analysis of the deposited data

How the results depend on the processing

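The median difference of the histone members, 0.43, kept its direction under every alternative run, from 0.34 to 0.51 with single arrays left out. It was 0.44 with the quantile normalization repeated and 0.41 after cyclic loess, where the median of all genes moved from 0.11 to 0.04 and 0.00. Control probe sets, the intensity trend, the replicate block and gene means over probe sets could not move it, since they leave each member's difference as it was. These are among the settings counted below. The 3 members called higher became 7 with the quantile normalization repeated, 6 after cyclic loess, 1 with equal array medians, 1 with array weights, 9 with the shared probe sets added and 0 under treat, and 1 to 8 with single arrays left out: 1 without DNTLX3+ replicate 1, 5 without replicate 2 and 8 without replicate 3. Under treat none of the 3 was called. Leaving treat aside, H2bc1 was called in the 14 of 14 settings that held it, since the filter on dim probe sets removed it. H2bc9 was called in 11 of 15 and H2bu2 in 12 of 15. H2ac15, H2bc14, H2bc18, H2bc4, H2bc9, H2bu1-ps, H2bu2 and H4c14 passed in 15 of 15. The genes called higher in addition were among H2ac15, H2bc14, H4c8, H2bu1-ps, H2ac4 and H3c4. Members called lower numbered 0 to 1 with single arrays left out. The 16 members that passed as higher ran from 9 to 19 with single arrays left out, and were 30 with the shared probe sets added, where 2 instead of 1 passed as lower. Shared probe sets called lower numbered 0 to 1 with single arrays left out.

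In the related lists, transcription and 3′ processing genes called lower were 1 with equal array medians and 0 to 1 with single arrays left out. Turnover genes called lower were 0 with the quantile normalization repeated and 1 after cyclic loess. Chaperones called higher were 1 after cyclic loess, and those called lower 1 with the quantile normalization repeated, 1 after cyclic loess, 1 with array weights and 1 to 2 with single arrays left out. Variant histones called higher were 1 to 2 with single arrays left out. The cause of these changes was not tested. Samples with the same replicate number did not deviate together (correlations of -0.11, 0.06 and -0.0017), and with the replicate block, which pairs them, the counts were 3 called and 16 passed. Group means of the H3 members, H2ac8, H1f3 and H1f6 lie under the array medians, as do the RAG-/- mean of H2bc1 and the DNTLX3+ mean of H2bc4. This limits what their differences show.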
